A study of Mus musculus with 96 samples.

Results

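The comparison described here asks how the response to 1 h of light in VIP nuclei differed from that in total nuclei of visual cortex, in mice whose VIP cells had received active Cre recombinase. Its libraries were chosen by their labels alone: all 48 libraries with the Cre virus, of 96 in the study, which are 24 of sorted VIP nuclei and 24 of total nuclei. A VIP and a total library of equal line, light condition and replicate number form a pair, giving 24 pairs, 12 after light and 12 in the dark. For each gene, the VIP-minus-total difference of the light pairs was compared with that of the dark pairs, within each of 3 mouse lines and then averaged over them at equal weight. A positive value means that RNA rose more, or fell less, with light in VIP nuclei than in total nuclei.

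Every mouse carried VIP flp/wt, which gives Flp recombinase to VIP cells, and was fl/fl for a conditional allele named Igf1-E1, Igf1-E23 or Igf1-E123. These alleles concern enhancers of Igf1, the gene of insulin-like growth factor 1. At 55 to 60 days of age the visual cortex was injected with AAV-Syn1-fDIO-mScarlet-KASH-2a-Cre, whose payload is driven by a neuronal promoter and switched on by Flp, so that Cre acts in VIP neurons. Dark housing began 3 days after that and lasted 10 to 12 days, and tissue was taken at its end or after 1 h of renewed light. Line E1 gave 4 light and 5 dark pairs, line E23 gave 4 and 4, and line E123 gave 4 and 3, with both sexes in every group. A further 48 libraries of the same lines received the same virus with the inactive form dCre and are used below for comparison. The labels do not say that equal numbers mean equal animals, nor that replicates are separate animals, so the p-values measure the spread between these samples.

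VIP cells are inhibitory interneurons of the cortex that make vasoactive intestinal peptide and act mainly on other inhibitory neurons. Light after a period of darkness drives visual cortex neurons to transcribe immediate-early genes, many of which encode transcription factors of the Fos, Egr and Nr4a families. Effector genes follow, which encode synaptic proteins, processing enzymes and secreted factors, and their choice is known to differ between types of neurons. Total nuclei hold excitatory neurons, interneurons of all kinds and glia.

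The Cre VIP libraries held 1559883 to 8497444 counts and the total libraries 1881731 to 8972526, each made from 50 to 100 nuclei. Summed levels of 13 VIP interneuron markers had medians of 9521 CPM (counts scaled to a library of 1000000) in dark and 8694 CPM in light VIP libraries, against 362.8 and 464.7 CPM in total libraries. Igf1 in VIP nuclei ranged from 254.9 to 841.9 CPM in the dark (median 393.6) and from 260.1 to 854.0 CPM after light (median 527.7), and gene counts do not cover the enhancers that Cre removes. In 4 pairs the VIP library stood apart through markers of other cells. Oligodendrocyte lineage markers summed to 760.3 to 2202 CPM in E23 light replicates 3 and 4, E23 dark replicate 2 and E123 light replicate 3, against 97.82 to 494.2 CPM in the other 20 VIP libraries. Astrocyte markers summed to 2933 CPM in E123 light replicate 3 and to 1125 and 997 CPM in E23 light replicates 3 and 4. E23 dark replicate 2 held 741.5 CPM of them, within the 263.8 to 791 CPM of the other 20 VIP libraries. Endothelial and mural markers summed to 556.6 CPM in E23 dark replicate 2, against 1.254 to 47.74 CPM in those 20. Several results are therefore also given without these 4 pairs, and those given only with them may differ. These pairs were picked by their VIP libraries only. In total libraries, oligodendrocyte lineage markers summed to 462.7 to 4324 CPM in the dark and 307.1 to 5051 CPM after light. Microglia markers there summed to 203.8 to 1600 CPM and 142.4 to 931.1 CPM. In pooled nuclei, fewer cells of a type and less RNA per cell cannot be told apart.

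Hunk, which encodes a protein kinase of the AMPK-related family, rose with light in VIP nuclei and not detectably in total nuclei. Cpeb3, Maml3 and Sdk2 moved the other way, since Cpeb3 and Maml3 rose with light in total nuclei and Sdk2 was higher there without passing by itself, while none of them changed detectably in VIP nuclei. These 4 genes, of 21569 tested, passed an adjusted p of 0.05 for the difference of the 2 light responses (edgeR quasi-likelihood test, Benjamini-Hochberg adjustment over all genes), which is 0.0185%, with 1 higher (0.00464%) and 3 lower (0.0139%). The 2 fractions themselves differed at 16.8% of genes in the dark and 16.3% after light. With the pairing dropped from the model, or with limma-voom, Hunk alone passed.

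The level of Hunk (mm10 chr16:90386013-90499553, plus strand) in dark VIP libraries ran from 13.31 to 53.60 CPM with a median of 21.31. In light VIP libraries it ran from 39.54 to 118.4 CPM with a median of 94.43. In total libraries it ran from 11.78 to 59.39 CPM in the dark (median 35.13) and from 9.953 to 36.74 CPM after light (median 24.22). Thus 11 of 12 light VIP libraries lay above every dark VIP library, while light and dark total libraries overlapped. Within pairs, the VIP-minus-total difference in log2(CPM + 1) was −1.23 to 1.10 in the dark and 0.85 to 3.00 after light. All but E23 light replicate 3 of the 12 light pairs lay above every dark pair. The light response of Hunk was 1.71 ± 0.230 (log2 ± SE, n = 12 and 12) in VIP nuclei, with an edgeR adjusted p of 7.68e-05, and −0.49 ± 0.251 in total nuclei (adjusted p = 0.45). Their difference was 2.30 ± 0.281, a 4.94-fold change, with a 95% interval of 1.73 to 2.88 and an edgeR adjusted p of 6.80e-05. By line it was 2.16 ± 0.456 in E1, 1.89 ± 0.480 in E23 and 2.87 ± 0.521 in E123. In the dark Hunk did not differ detectably between the fractions (−0.28 ± 0.199, edgeR adjusted p = 0.408), and after light VIP nuclei held more of it (2.03 ± 0.200, adjusted p = 3.32e-09). Without the 4 pairs with high glial or endothelial markers the difference was 2.42, with an edgeR adjusted p of 0.000311.

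**Figure D1:**
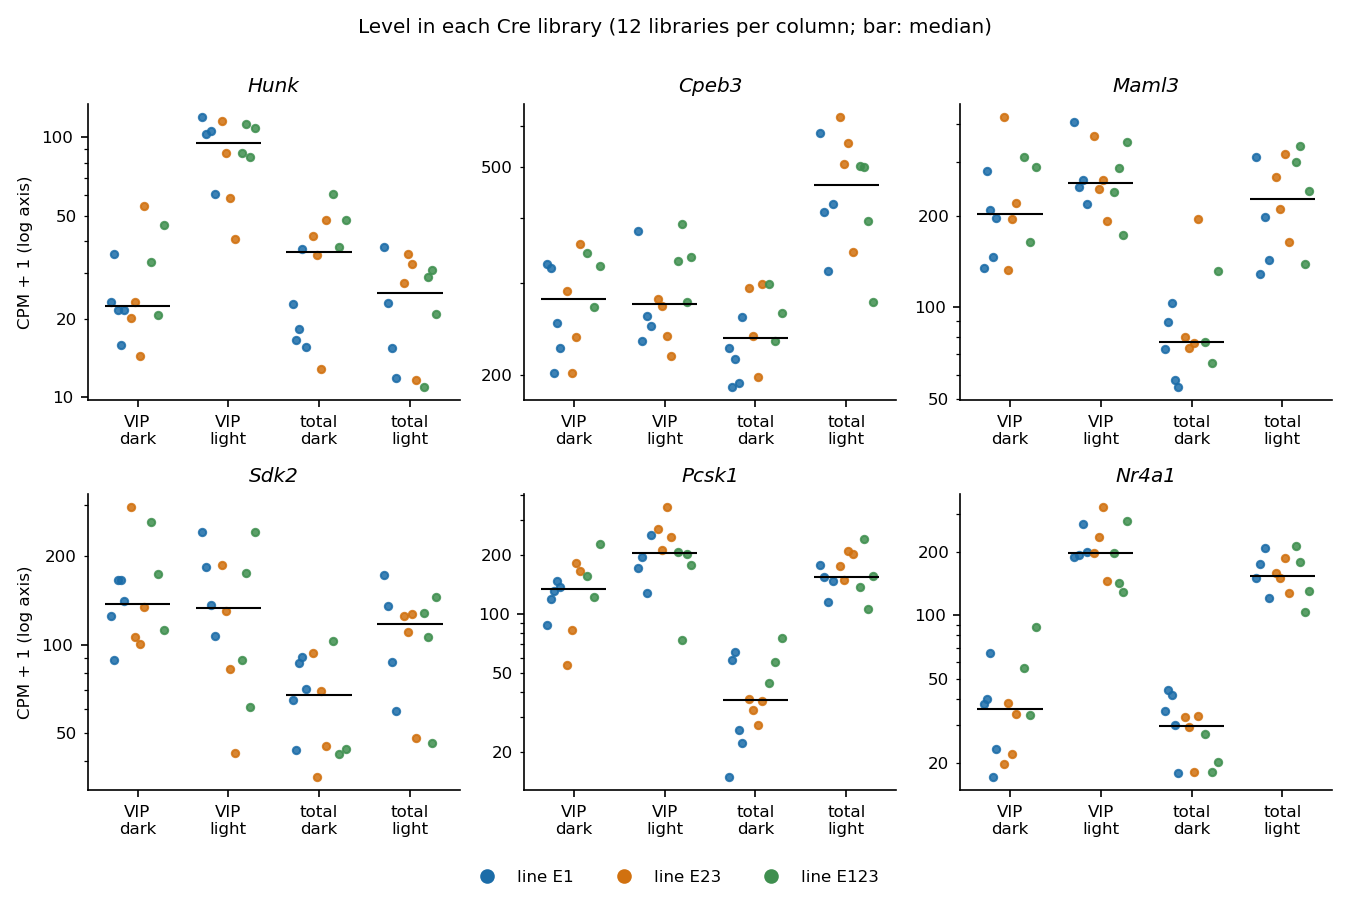
Level of Hunk, Cpeb3, Maml3, Sdk2, Pcsk1 and Nr4a1 in each Cre library, as CPM + 1 on a log axis, with 12 libraries per column, colours for the 3 lines and a bar at the median. Of the light VIP libraries of Hunk, 11 of 12 sit above all dark ones, light total libraries of Pcsk1 sit above all dark ones, and Nr4a1 is higher after light in both fractions.

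Cpeb3 (chr19:37021291-37208601, minus strand) encodes an RNA-binding protein that controls translation of messages at synapses. Its level in VIP libraries was 200.2 to 354.4 CPM in the dark (median 278.3) and 216.1 to 388.6 CPM after light (median 272.4). In total libraries it was 188.7 to 297.5 CPM in the dark (median 233.8) and 274.6 to 621.9 CPM after light (median 461.7), so that 11 of 12 light total libraries exceeded every dark one. Light and dark VIP libraries overlapped. Light changed Cpeb3 by 0.88 ± 0.127 (log2 ± SE) in total nuclei, with an edgeR adjusted p of 6.71e-05, and by 0.00 ± 0.138 in VIP nuclei. The difference was −0.83 ± 0.143, with a 95% interval of −1.13 to −0.54 and an edgeR adjusted p of 0.0238. In 11 of 12 light pairs, all but E123 light replicate 4, the VIP-minus-total value lay below every dark pair.

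Maml3 (chr3:51685907-52105076, minus strand) encodes a mastermind-like coactivator of Notch signalling. It ran from 131.6 to 419.3 CPM in dark and 172.1 to 405.3 CPM in light VIP libraries, which overlapped. In total libraries the range moved from 53.77 to 194.1 CPM (median 75.62) in the dark to 127.7 to 338.4 CPM (median 225.0) after light, with 8 of 12 light libraries above every dark one. The light response was 1.35 ± 0.193 in total nuclei (edgeR adjusted p = 6.39e-05) and 0.23 ± 0.186 in VIP nuclei (adjusted p = 0.82). Their difference was −1.08 ± 0.200, with an edgeR adjusted p of 0.0452. The VIP excess of Maml3 over total nuclei was 1.35 ± 0.146 in the dark and 0.27 ± 0.138 after light, so the fractions were closer after light.

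Sdk2 (chr11:113776374-114067046, minus strand) encodes the adhesion molecule sidekick 2, known from neuronal wiring in the retina. VIP libraries held 87.54 to 293.1 CPM in the dark (median 137) and 41.51 to 242.3 CPM after light (median 132.8), and total libraries 34.37 to 102.2 CPM (median 66.04) and 45.00 to 172.1 CPM (median 116.6). The light response was −0.22 ± 0.242 in VIP and 0.74 ± 0.219 in total nuclei, and neither passed by itself (edgeR adjusted p of 0.89 and 0.0903). Their difference was −0.99 ± 0.185 (edgeR adjusted p = 0.0452). As with Maml3, the VIP excess shrank with light, from 1.31 ± 0.134 to 0.32 ± 0.129. By line the difference of Sdk2 was −0.36 in E1, against −1.35 in E23 and −1.25 in E123. Without the 4 pairs named above, Cpeb3 stood at −0.85, Maml3 at −1.08 and Sdk2 at −0.83, with edgeR adjusted p of 0.152, 0.262 and 0.819. Of the 24 fits that each left out a single pair, Cpeb3 kept its call in 11, Maml3 in 6, Sdk2 in 2 and Hunk in all 24. These 24 fits kept the tested genes and the dispersion trend from the fit of all pairs, so they are not full refits.

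**Figure D2:**
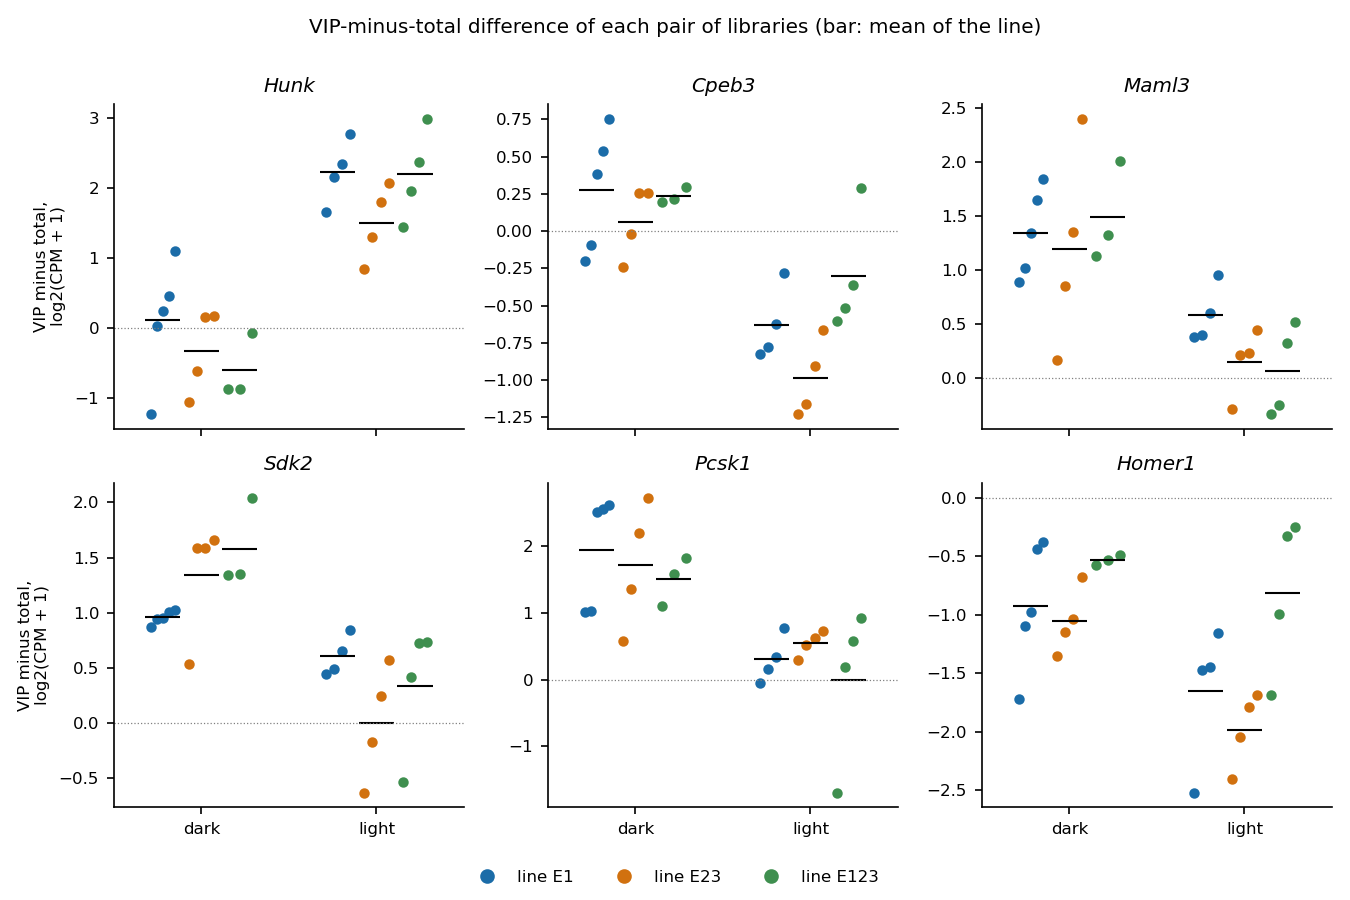
VIP-minus-total difference in log2(CPM + 1) of each pair for Hunk, Cpeb3, Maml3, Sdk2, Pcsk1 and Homer1, dark and light pairs side by side, with a bar at the mean of each line. Light pairs of Hunk lie higher than dark pairs in all 3 lines, and light pairs of Cpeb3, Maml3, Sdk2 and Pcsk1 lie lower, with overlap between single pairs.

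Next came genes of effector type that light raised in total nuclei. Pcsk1, prohormone convertase 1, cuts neuropeptide precursors into active peptides. Its level in total libraries (chr13:75089826-75134861, plus strand) was 13.92 to 74.92 CPM in the dark (median 35.49) and 105.2 to 238.5 CPM after light (median 153.7), and all 12 light libraries exceeded every dark one. In VIP libraries it was 54.27 to 226.8 CPM (median 132.8) and 72.94 to 346.7 CPM (median 202.9), with overlap. The light response was 1.99 ± 0.198 in total nuclei (edgeR adjusted p = 9.49e-08) and 0.56 ± 0.192 in VIP nuclei (adjusted p = 0.286). The difference of −1.45 ± 0.279 had an edgeR adjusted p of 0.0607 and so did not pass. It passed in 4 of the 24 fits without a single pair. Of 16 other settings it passed in 8, among them another normalization (RLE) and a stricter filter. By line the difference was −1.68 in E1, −1.20 in E23 and −1.48 in E123. In the dark, VIP nuclei held more Pcsk1 than total nuclei by 1.75 ± 0.205, and after light by 0.30 ± 0.193. An exact two-sided permutation of the light labels over pairs within each line gave p = 9.39e-05 for Pcsk1. The same exact permutation was run for 20 genes, and Homer1 (p = 0.00332) and Ier2 (p = 0.0146) were the others under 0.05. These p-values are not adjusted. After Benjamini-Hochberg adjustment of the permutation test over the 20 genes, 2 stayed under 0.05, Pcsk1 (adjusted p = 0.00188) and Homer1. Ier2 did not. The 20 genes were chosen with earlier results of these data known, so this adjustment does not replace the one over all genes. In edgeR, with adjustment over all genes, neither Pcsk1 nor Homer1 passed.

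Sik2 encodes a salt-inducible kinase, which holds the coactivators of CREB out of the nucleus. It rose in both fractions, by 0.97 ± 0.195 in VIP nuclei (edgeR adjusted p = 0.0137) and by 1.95 ± 0.182 in total nuclei (adjusted p = 3.07e-08). The difference of −0.96 ± 0.194 did not pass (adjusted p = 0.0959). Homer1, a scaffold protein of the excitatory postsynapse whose short form is made on activity, rose by 1.13 ± 0.196 in VIP nuclei and by 1.68 ± 0.164 in total nuclei (edgeR adjusted p of 0.00303 and 7.52e-08). Its light libraries ranged from 71.33 to 482.8 CPM in VIP and from 358.9 to 775.4 CPM in total nuclei, and all 12 of the latter exceeded every dark one. The difference was −0.64 ± 0.189, with an edgeR adjusted p of 0.80. Ntrk2, the receptor for BDNF, rose in every light library of both fractions above all dark ones, by 0.97 ± 0.142 in VIP and 1.30 ± 0.115 in total nuclei, with a difference of −0.31 ± 0.138 that did not pass.

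Nr4a1, Fosl2 and Egr1, transcription factors of the immediate-early wave, rose in both fractions, and no difference between the fractions was detected for them. Nr4a1, an orphan nuclear receptor (chr15:101254269-101274795, plus strand), ran from 16.16 to 86.89 CPM in dark and 128.2 to 322.5 CPM in light VIP libraries. In total libraries it ran from 16.89 to 43.32 CPM in the dark and from 102.9 to 211.3 CPM after light. All 12 light libraries exceeded all dark ones in both fractions. The responses of Nr4a1 were 2.40 ± 0.221 and 2.57 ± 0.168 (edgeR adjusted p of 6.07e-08 and 1.14e-11), and their difference was −0.11 ± 0.209 with a 95% interval of −0.53 to 0.32. Fosl2, an AP-1 subunit, rose by 3.03 ± 0.294 in VIP and 2.98 ± 0.301 in total nuclei, with a difference of −0.05 ± 0.267 (95% interval −0.59 to 0.50). Egr1, a zinc-finger factor, rose by 2.41 ± 0.335 and 2.22 ± 0.184, with a difference of 0.33 ± 0.285 (−0.25 to 0.91). These intervals leave room for differences of either sign.

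Other early genes had wider errors in VIP nuclei than in total nuclei. Fos, the founding AP-1 subunit, rose by 2.97 ± 0.400 in total nuclei (edgeR adjusted p = 4.35e-05). In VIP nuclei it was higher in light libraries by 2.57 ± 0.557, just outside the threshold (adjusted p = 0.0523), and the difference was −0.19 ± 0.403. Junb rose by 1.54 ± 0.328 and 1.89 ± 0.272, with a difference of −0.29 ± 0.314. Arc, a regulator of synaptic receptor traffic, rose by 2.90 ± 0.314 in total nuclei, where light libraries held 76.78 to 354.0 CPM against 4.087 to 75.28 CPM in the dark. In VIP nuclei the Arc values of 14.26 to 109.8 CPM after light overlapped those of 0 to 44.17 CPM in the dark, and the change of 2.10 ± 0.676 did not pass. Bdnf, the TrkB ligand, rose by 1.87 ± 0.279 in total nuclei (edgeR adjusted p = 0.000129), and in VIP nuclei its median was 1.451 CPM in the dark and 7.319 CPM after light (change 1.20 ± 0.847). The differences between fractions of Arc (−0.41 ± 0.683), Bdnf (0.04 ± 0.633), Npas4 (−0.16 ± 0.696) and Nr4a2 (1.11 ± 0.727) have errors too wide to read. Fosb had no usable estimate in the paired model.

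**Figure D3:**
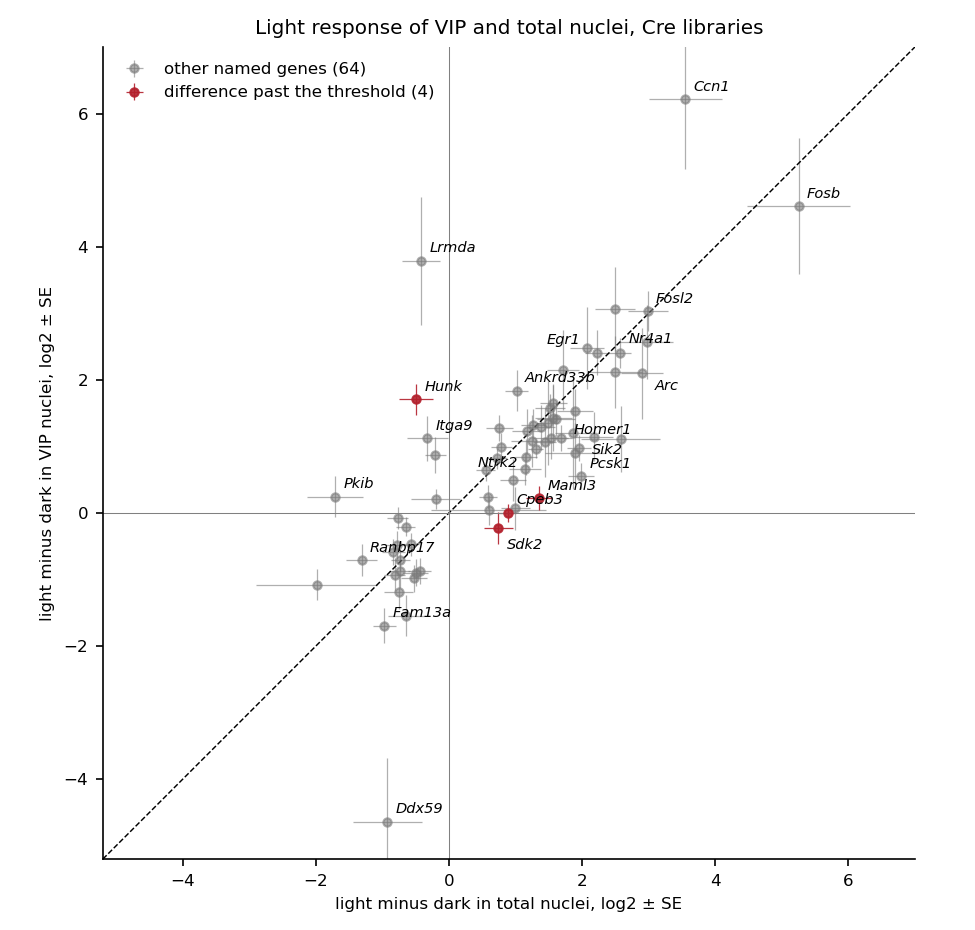
Light response in VIP nuclei (vertical axis) against that in total nuclei (horizontal axis) for the 68 named genes of the Cre libraries, log2 light minus dark with SE bars, and a diagonal where both are equal. Nr4a1, Fosl2 and Egr1 lie near the diagonal, and the 4 genes past the threshold for the difference are in red, Hunk above the diagonal and Cpeb3, Maml3 and Sdk2 below it.

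Promoters of genes that light raised in both fractions, in total nuclei or in VIP nuclei are shown here, as the 250 bases before the RefSeq start in GRCm38.p6, the patch release of the build named mm10. They were searched on both strands for the cAMP response element CRE (TGACGTCA), for its core TGACG, which the full element contains, for the AP-1 motif TGANTCA, the Egr motif GCGNGGGCG and the Nr4a element AAAGGTCA. Of 32851 mouse promoters of the same length 1.55% hold a CRE, 17.8% the core, 6.75% the AP-1 motif, 4.7% the Egr motif and 1.34% the Nr4a element. Capitals mark the core, which reads CGTCA on the other strand, and positions count back from the start.
Nr4a1, chr15:101266596-101266845, plus strand: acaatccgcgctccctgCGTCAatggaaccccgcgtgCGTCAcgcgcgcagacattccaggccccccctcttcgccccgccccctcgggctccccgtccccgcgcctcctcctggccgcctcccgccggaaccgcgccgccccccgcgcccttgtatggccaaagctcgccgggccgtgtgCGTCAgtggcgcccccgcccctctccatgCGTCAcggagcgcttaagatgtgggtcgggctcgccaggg
Homer1, chr13:93303507-93303756, plus strand: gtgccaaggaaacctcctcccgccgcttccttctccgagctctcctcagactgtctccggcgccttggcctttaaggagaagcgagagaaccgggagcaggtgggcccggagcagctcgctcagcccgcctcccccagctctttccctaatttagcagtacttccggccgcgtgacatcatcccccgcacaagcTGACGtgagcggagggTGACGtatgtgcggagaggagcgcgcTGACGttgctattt
Pcsk1, chr13:75089607-75089856, plus strand: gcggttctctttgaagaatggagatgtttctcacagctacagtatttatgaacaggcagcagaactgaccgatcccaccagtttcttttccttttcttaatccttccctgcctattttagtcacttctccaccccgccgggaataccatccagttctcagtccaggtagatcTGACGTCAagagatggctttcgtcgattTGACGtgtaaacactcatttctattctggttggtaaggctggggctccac
Hunk, chr16:90386147-90386396, plus strand: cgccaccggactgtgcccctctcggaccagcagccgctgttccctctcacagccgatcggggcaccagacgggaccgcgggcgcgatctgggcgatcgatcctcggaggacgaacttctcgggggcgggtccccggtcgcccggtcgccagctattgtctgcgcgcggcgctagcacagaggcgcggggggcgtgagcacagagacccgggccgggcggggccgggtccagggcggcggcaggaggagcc
Maml3, chr3:52105007-52105256, minus strand: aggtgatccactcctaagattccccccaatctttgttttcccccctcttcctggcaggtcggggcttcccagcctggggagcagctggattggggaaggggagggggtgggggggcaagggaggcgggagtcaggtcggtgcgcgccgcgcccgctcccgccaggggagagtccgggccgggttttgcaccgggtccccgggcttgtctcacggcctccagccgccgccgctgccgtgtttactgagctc
Nr4a1, which rose in both fractions, holds the core 4 times, and its Egr motif begins at -60. Homer1, which rose less in VIP nuclei without passing for the difference, holds the core 3 times at the upstream of its 2 listed starts. Pcsk1 holds a full CRE at -78 and a further core at -50. The promoters shown are picked examples. Of other genes that light raised in both fractions, Fosl2, Ntrk2, Sik2, Dusp6 and Pde10a hold neither the CRE nor its core. Sik3, Spred2 and Per1 hold the core. The windows of Hunk and Maml3, which were called for the difference in opposite directions, hold none of these motifs, and neither does that of Sdk2. The windows of Hunk and Nr4a1 begin after the gene starts given above, so sequence before those starts was not searched. Of 3 listed starts of Cpeb3, the third has the core at -245 and the others hold none. A match is a description of the sequence and not a sign of binding.

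In the Fos and Jun, Egr and Nr4a, other immediate-early, effector and MAPK lists, the median difference of the light responses was smaller in size than the median response of either fraction. No list had a member past the threshold for the difference in edgeR, where the background was 0.0185%. DESeq2 called 60 genes in all, and among the lists of this paragraph it called Pcsk1 of the effector genes and Sik2 of the CREB pathway genes. Over genes with a usable estimate, the median difference was −0.12 for 6 of 7 Fos and Jun family genes, 0.18 for 8 of 8 Egr and Nr4a genes and −0.16 for 19 of 21 other immediate-early genes tested, against 0.06 over all genes. For 23 of 24 activity-regulated effector genes it was −0.27, and 15 of the 23 were negative, where 8452 of 18941 over all genes were. Pcsk1 and Homer1 were the effector genes under an unadjusted p of 0.05, where 3.91% of all genes were. Among the other immediate-early genes, Tiparp (−1.36 ± 0.467), Sik1 (−1.68 ± 0.729) and Ier2 (−1.63 ± 0.792) had an unadjusted p under 0.05 on the lower side and Klf10 (2.76 ± 0.908) on the higher side. MAPK phosphatases and feedback regulators, which damp MAPK signalling, had a median of −0.26 over 13 of 14, and the 15 CREB pathway genes −0.03. Of the MAPK regulators, Dusp10 at 1.24 ± 0.438 and Spred1 at −0.59 ± 0.232 had an unadjusted edgeR p under 0.05. Without the 4 pairs with high glial or endothelial markers some medians moved. They were −0.04 for Fos and Jun, 0.47 for Egr and Nr4a and −0.33 for other immediate-early genes. For effector, MAPK and CREB pathway genes they were −0.18, −0.15 and 0.07.

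Light by itself raised 40 genes in VIP nuclei (0.208% of 19226 tested) and 225 in total nuclei (1.14% of 19813), and lowered 13 (0.0676%) and 63 (0.318%). Called in both fractions were 26 genes that rose and 2 that fell, none in opposite directions. These are 52.8% of the 53 called in VIP nuclei and 9.72% of the 288 called in total nuclei. The 53 and 288 genes are 0.276% and 1.45% of those tested. A gene called in total nuclei alone is not shown to differ from VIP nuclei, whose libraries varied more (biological coefficient of variation 0.798 against 0.661). Members called higher were 3 of 7 Fos and Jun genes in VIP and 4 of 7 in total nuclei, 3 and 7 of 8 Egr and Nr4a genes, 2 of 21 and 11 of 19 other immediate-early genes, and 1 and 9 of 24 effector genes. Of MAPK regulators 2 of 12 and 5 of 14 rose, and of CREB pathway genes 3 and 4 of 15.

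Among these smaller sets, several signalling genes rose in both fractions with no detected difference between them. Pde10a, a phosphodiesterase of cyclic nucleotides, rose by 1.32 ± 0.243 in VIP and 1.27 ± 0.180 in total nuclei, with a difference of 0.12 ± 0.171 (95% interval −0.23 to 0.47). Sik3, a further salt-inducible kinase, rose by 0.82 ± 0.162 and 0.72 ± 0.151, and Spred2, an inhibitor of Ras signalling, by 0.99 ± 0.205 and 0.79 ± 0.154. Dusp6, an ERK phosphatase, rose by 1.41 ± 0.257 and 1.61 ± 0.284. The clock gene Per1 rose by 1.65 ± 0.277 and 1.57 ± 0.206, and Per2 by 1.38 ± 0.214 in total nuclei while its VIP change of 1.29 ± 0.340 did not pass. Mir670hg, a microRNA host transcript that was far higher in VIP nuclei, rose by 1.58 ± 0.212 there and 1.52 ± 0.226 in total nuclei. Its light libraries ran from 202.2 to 628.1 CPM in VIP and from 27.94 to 74.93 CPM in total nuclei. Among genes that fell, Fam13a, which encodes a protein with a RhoGAP domain, dropped by 1.69 on the log2 scale in VIP nuclei and by 0.97 in total nuclei. Ranbp17, of the importin family, fell by 1.31 in total nuclei, while its VIP value of −0.71 did not pass.

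**Figure D4:**
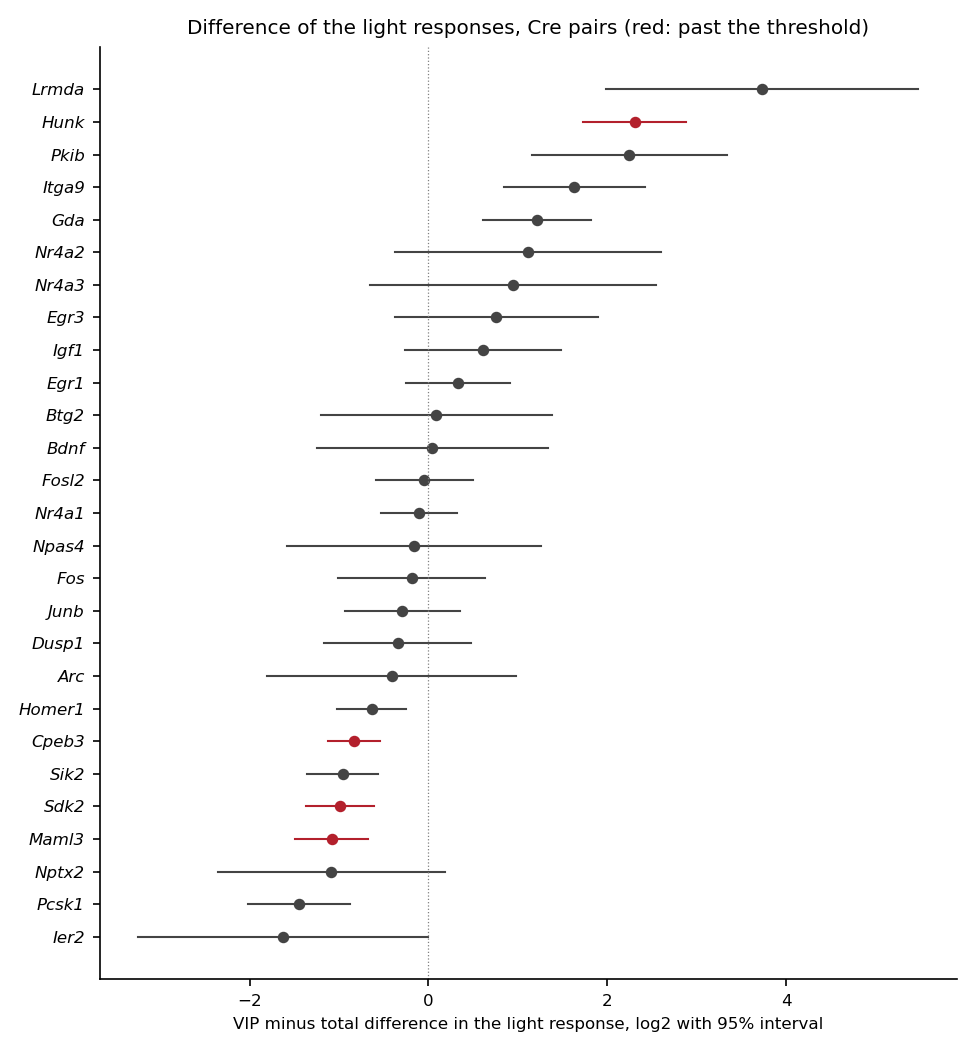
Difference between the VIP and total light responses for 27 genes, log2 with 95% interval, from the paired model. Hunk, Cpeb3, Maml3 and Sdk2, in red, passed the threshold, Pcsk1 and Sik2 lie as far to the left without passing, and the intervals of the Fos, Egr and Nr4a genes include 0.

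The genes with the next smallest p on the higher side did not pass. Pkib, an inhibitor of protein kinase A, differed by 2.24 ± 0.535 (edgeR adjusted p = 0.319). It fell with light in total nuclei by 1.71 (adjusted p = 0.0264), from 6.625 to 27.66 CPM in the dark to 0.1376 to 13.49 CPM after light, and stood at 0.25 ± 0.307 in VIP nuclei. Itga9, an integrin subunit, differed by 1.63 ± 0.387, Gda, guanine deaminase, by 1.21 ± 0.296 and Lrmda by 3.73 ± 0.855, with edgeR adjusted p of 0.319, 0.397 and 0.306. Lrmda was near 0 in dark VIP libraries (median 0.1794 CPM), and its value was 2.48 without the 4 pairs with high glial or endothelial markers. Astrocyte markers leaned the same way. All 10 had a positive difference, where 10489 of 18941 over all genes did. Their median was 1.35 with none past the threshold, and none was at 0 in all libraries of a group. Their summed level was 263.8 to 791.0 CPM in dark and 319.3 to 2933 CPM in light VIP libraries, and 327.8 to 954.3 and 421.1 to 745.0 CPM in total libraries. Without the 4 pairs 8 of 10 were positive with a median of 0.32. Hunk stood at 2.42 without those pairs. Among other marker lists the median difference was 0.65 over 4 Lamp5 and Sncg markers, 0.47 over 9 parvalbumin and somatostatin markers, 0.43 over 11 GABAergic markers, 0.31 over 13 oligodendrocyte lineage markers and −0.27 over 11 VIP interneuron markers, with none past the threshold. Without the 4 pairs these were 0.55, 1.05, 0.48, −0.14 and −0.15. The part of such cells in the results was not tested.

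**Figure D5:**
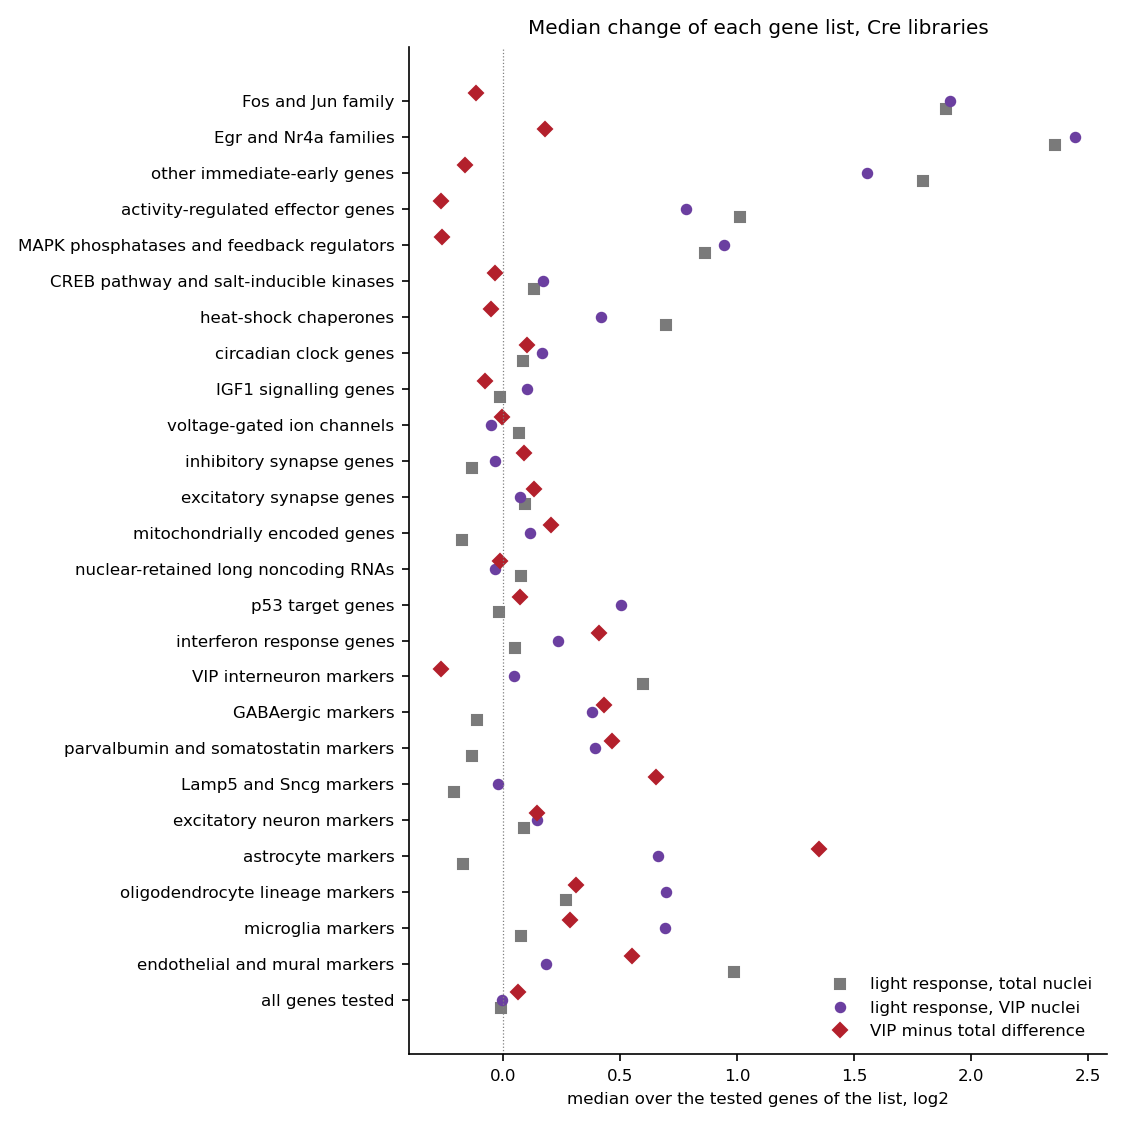
Median log2 change over the tested genes of each list, for the light response of VIP nuclei, that of total nuclei and their difference. The immediate-early lists lie far to the right for both fractions and near 0 for the difference, and the astrocyte list stands at 1.35 for the difference.

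The 3 lines were averaged, and no gene of 21569 passed a test of any difference between them (edgeR, adjusted p under 0.05), while 634 had an unadjusted p under 0.05. Nr4a1 had the smallest such p of the named genes (edgeR, 0.00659 before and 1 after adjustment), with a difference of 0.35 in E1 and 0.50 in E23 but −1.17 in E123. Fosl2 had the same order, with 0.49, 0.64 and −1.27.

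The same difference was computed in the 48 dCre libraries, where Cre is inactive. No gene of 22926 passed there in edgeR (0%, with 1155 under an unadjusted p of 0.05), nor did any pass the test of Cre minus dCre (0%, with 654). Hunk differed by 1.20 ± 0.311 in dCre pairs (edgeR, p of 0.000329 before and 0.314 after adjustment). Its dCre VIP libraries held 10.22 to 98.77 CPM in the dark and 33.41 to 132.0 CPM after light. All 13 light pairs lay above the median of the 11 dark pairs, but only 6 of the 13 lay above every dark pair. The Cre value exceeded the dCre value by 1.11 ± 0.437 (unadjusted p = 0.0146, edgeR adjusted p = 1). In dCre pairs Maml3 stood at −0.86 ± 0.209, Sdk2 at −0.87 ± 0.209, Cpeb3 at −0.48 ± 0.162, Pcsk1 at −0.69 ± 0.288 and Homer1 at −0.61 ± 0.286, all on the same side as with Cre and none past the threshold. In 8 dCre dark libraries long genes were over-represented, with a length index (mean log2(CPM + 1) of protein-coding genes spanning at least 100000 bases minus that of those up to 10000 bases) of 3.999 to 4.457 against 2.04 to 3.538 in Cre libraries. With dCre fitted alone and without those 4 pairs, Hunk stood at 1.36 ± 0.407, Maml3 at −0.62 ± 0.242, Sdk2 at −1.13 ± 0.273, Cpeb3 at −0.46 ± 0.228 and Pcsk1 at −1.09 ± 0.319. A single gene of 23513, Scube1, passed in that fit (edgeR).

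Lists chosen in dCre libraries allow a look at the Cre libraries that did not choose them. The choice used all dCre libraries, including the 8 dark ones with a high length index. The lists were not chosen again without those libraries. Of 582 genes that rose with light in dCre total nuclei (3.07% of 18960 tested), 120 of 580 tested were called higher in Cre total nuclei, where 1.14% of all genes were, and 25 of 576 in Cre VIP nuclei, where 0.208% were. Their medians were 0.35 and 0.28. Their median difference was −0.04, against 0.06 over all genes, and 2 of 581 tested were called, both lower (Cpeb3 and Maml3, against 0.0139% of all genes). For 613 genes that rose in dCre VIP nuclei (3.31% of 18504 tested), 27 of 608 tested were called higher in Cre VIP and 55 of 610 in Cre total nuclei, with medians of 0.25 and 0.21. The median difference was 0.07, and 1 of 612 was called, higher (Hunk, against 0.00464% of all genes).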

How the data were processed

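Meso-Seq, a dT-primed nuclear RNA-seq method for few cells, was run on 50 to 100 sorted nuclei per library with 17 PCR cycles, and Nextera XT libraries do not mark strand, so overlapping and antisense genes cannot be told apart. The authors deposited raw read counts per Ensembl gene (55335 rows); the submitters' processing notes list cutadapt 1.18, STAR 2.5.3a, HOMER 4.9.1 and build mm10, and the annotation release is not given in the sources used here. Symbols and coordinates come from GENCODE on GRCm38 (55154 identifiers matched; the other 181 hold 0.0225% of counts). Promoter sequence, held for 58 of 68 named genes, is RefSeq's.

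Counts were filtered by filterByExpr, scaled by TMM and fitted with edgeR 4.0.16's quasi-likelihood test (R 4.3.3). The difference was taken in a model with 1 term per pair. Each light response was fitted within its fraction, and Benjamini-Hochberg adjustment ran over all genes tested at a threshold of 0.05. Log2 values carry SE = |log2 change| / √F. CPM values use TMM library sizes. Counting error at these totals is small beside the spread between libraries for genes above 20 CPM. No 2 libraries of a group agreed within sampling noise. The single-gene test permuted light labels within lines (308700 relabelings, smallest p 3.239e-06). Alternatives were DESeq2 1.42.0, limma 3.58.1, other scalings, filters, covariates and left-out pairs. Named genes are a fixed core of activity genes plus the top genes by p in each comparison and direction with a mean of at least 5 CPM. The members and lists were chosen with earlier results of these data known. The scripts were tested on simulated counts, drawn without shared deviation within pairs. There the paired model called 7 of 100 planted 2-fold differences and 42 of 100 planted 4-fold ones. A gene that did not pass may thus still differ between the fractions.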

Additional observations from a re-analysis of the deposited data

Results flagged for a closer look

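Within the 115 sets of pairs of equal line and light condition that hold 4 or 5 pairs, over 23 genes, 3 had a pair far from the rest by Dixon's ratio, of which chance alone gives about 1 in 20 sets. For Sdk2, E23 dark replicate 3 had a VIP-minus-total value of 0.54 in log2(CPM + 1), with 99.68 CPM in VIP and 68.34 CPM in total nuclei, while the other E23 dark pairs held 1.58 to 1.66. For Junb, E1 light replicate 4 stood at −0.32, from 27.78 and 35.03 CPM, while the others held −1.35 to −1.24. For Arc, E1 dark replicate 4 stood at −4.71, since its VIP library held no Arc count and its total library 25.14 CPM, while the others held −1.10 to −0.76.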

How the results depend on the processing

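The count of 4 genes for the difference was 60 with DESeq2 (37 higher, 23 lower, all 4 among them), 69 with no filter on low counts, and 1, which was Hunk, with limma-voom taking the replicate block as a random effect, without the 4 pairs with high glial or endothelial markers, without line E1 and without line E23. Without line E123 it was 0 in edgeR, with 774 genes at an unadjusted p under 0.05 and Hunk at an adjusted p of 0.0771. Leaving out a single pair, with the dispersion trend of all pairs kept, gave 1 to 5. Hunk alone was left without E1 light replicate 1, 2 or 4, E23 light replicate 1, 2 or 3, E123 dark replicate 1, 2 or 3, or E123 light replicate 1 or 2, and 2 genes were left without E1 dark replicate 4, E23 dark replicate 3 or 4, or E23 light replicate 4. The other scalings, filters and covariates gave 3 to 6.

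The 53 genes of the VIP light response were 193 with DESeq2, 144 with the length index as covariate, 231 with no filter and 42 without the 4 pairs. When 1 library was left out they were 31 to 69, with 31 without E123 dark VIP replicate 1 or 2. The 288 genes of the total response were 488 with DESeq2, 469 with the length index, 165 with the replicate block and 170 without the 4 pairs, and 149 to 333 when 1 library was left out, with 149 without E123 dark total replicate 2.

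Pairing rests on equal numbers. Same-numbered VIP and total libraries deviated together with r over 0.1 in 15 of 24 pairs (r −0.07 to 0.47, over 7949 genes), and a library correlated best with its own number in 14. With no replicate block 1 gene, Hunk, passed, with 1147 at an unadjusted p under 0.05. The tests of Cre minus dCre and of line differences gave 0 in edgeR also with no replicate block (852 and 1242 at an unadjusted p under 0.05).

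Small differences that never passed changed sign. Fos was 0.0199 with voom, 0.19 without line E1 and −0.47 to 0.0378 without single pairs. Fosl2 was 0.11 with equal weight per pair, 0.0912 without the 4 pairs, 0.58 without line E123, 0.0629 with no replicate block and −0.18 to 0.17 without single pairs. Nr4a1 was 0.0287 with equal weight, 0.44 without line E123 and −0.20 to 0.0307 without single pairs, and Egr1 was −0.0430 without line E23. Npas4 was 0.0840 without the 4 pairs and −0.48 to 0.25 without single pairs, Arc 0.26 with voom, 0.09205 without line E123 and −0.62 to 0.00343 without single pairs, and Dusp1 0.0346 without line E1. Bdnf was −0.12 without the 4 pairs, −0.60 without line E1, −0.30 without line E123, −0.69 with no replicate block and −0.44 to 2.05 without single pairs. The cause of these changes was not tested. The alternative that left out libraries with few detected genes gave no value, since no library was below its limit.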

Other observations

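Among gene lists not described above, 22 genes of IGF1 signalling had a median difference of −0.08 between the VIP and total light responses, and none passed in edgeR or DESeq2. At an unadjusted p under 0.05 in edgeR 1 was higher (Grb10) and 1 lower (Igfbp6, an IGF-binding protein, −1.87 ± 0.697), where 3.91% of all genes were. Grb10, an adaptor that binds the insulin and IGF1 receptors, had the smallest p among them, with 0.58 ± 0.171 (unadjusted p = 0.00181), from means of 171.4 CPM in dark and 191.9 CPM in light VIP libraries and 52.99 and 39.68 CPM in total libraries. Irs2, an adaptor of the same receptors, rose in total nuclei by 1.25 ± 0.309 (edgeR adjusted p = 0.0303), and its VIP value of 1.08 ± 0.393 did not pass. Igf1 itself differed by 0.61 ± 0.429.

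The 21 genes of excitatory synapses had a median difference of 0.13 and the 24 voltage-gated ion channels −0.01, with none past the threshold in edgeR or DESeq2. At an unadjusted p under 0.05 in edgeR they held 5 and 0 genes, where 3.91% of all genes were. They lay on both sides, 2 higher and 3 lower. Shank2, a scaffold of the excitatory postsynapse, stood at −0.55 ± 0.179 (unadjusted p = 0.00461), with means of 347.9 CPM in dark and 346.5 CPM in light VIP libraries and of 255.0 and 344.5 CPM in total libraries. Dlg4, the postsynaptic scaffold PSD-95, rose in total nuclei by 0.99 ± 0.218 (edgeR adjusted p = 0.0103) and stood at 0.07 ± 0.320 in VIP nuclei, with a difference of −0.75 ± 0.357 that did not pass. Of 8 heat-shock chaperones tested, Hsph1 (1.16 ± 0.168) and Dnajb1 (1.17 ± 0.224) rose in total nuclei, while their VIP values of 0.84 ± 0.266 and 1.22 ± 0.344 did not pass.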
